A study of Homo sapiens with 4 samples.

Results

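The chromatin around ISL1, its paralogue ISL2 and the LIM-domain partner genes LMO1, LMO3, LMO4 and LDB1 was examined in SK-N-BE(2)C cells, a MYCN-amplified human neuroblastoma line. Accessibility was measured by ATAC-seq, in which the Tn5 transposase cuts open chromatin and leaves adapters there, so that open sites collect fragments. Control cells (genotype wildtype) received a non-targeting gRNA. sgSNHG1 cells (genotype SNHG1 knockout) received Cas9 and gRNAs against SNHG1, whose long non-coding transcript is a host of small nucleolar RNAs. Clones were grown from single sorted cells, and the study describes the sgSNHG1 clones as depleted of SNHG1 RNA. Which clones entered the assay is not given in the sources used here. Each group had 2 replicates that the authors combined before peak calling, so that each group is 1 peak list. The spread between replicates is therefore unknown, and the groups were compared without a test.

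The members were the peaks of each list that overlapped one of the 6 genes or the 100 kb on either side of it. They numbered 43 of 47610 control peaks and 38 of 42682 sgSNHG1 peaks. Peaks within 3 kb of a transcription start site (TSS) of any transcript of the gene were taken as its promoter peaks, and each list had 9 of these. A distal peak lay farther than 3 kb from the TSS of any gene, and there were 27 in control and 22 in sgSNHG1. The other 7 peaks of each list lay at promoters of neighbouring genes. The rule used gene names and positions, not measured values.

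LIM-homeodomain proteins such as ISL1 and ISL2 bind DNA through a homeodomain and other proteins through LIM domains. LDB1 binds LIM domains and itself, and so joins LIM proteins on separate sites into larger complexes. LMO proteins have LIM domains but no homeodomain, and reach DNA through partners such as GATA and basic helix-loop-helix factors. ISL1 is needed in the development of sympathetic neurons and belongs to the core regulatory circuitry of adrenergic neuroblastoma, and LMO1 is a neuroblastoma susceptibility gene.

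The level of a peak is given by its deposited fold enrichment, which divides the fragments stacked over the summit by the background that MACS2 estimated around it. The pileup is that number of fragments, and was recovered from the deposited values. The median pileup was 24 fragments (quartiles 17 and 37) over all control peaks and 20 fragments (quartiles 15 and 30) over all sgSNHG1 peaks. Ratios are sgSNHG1 over control on the log2 scale, and their standard error (SE) comes from counting the fragments of both pileups alone. Pileups were also scaled by the smallest local background of their list, which was 2.20 fragments in control and 1.72 in sgSNHG1. Promoter peaks were called in both lists at 8 of 9 neuroblastoma marker genes, TH being the exception, and at 4 of 9 marker genes of other cell types (CDH5, EPCAM, COL1A1 and PDGFRB). The 3 blood marker genes given here (PTPRC, CD3E and SPI1) had no promoter peak in either list.

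The sequences around the control summits of the highest promoter peaks and of the leading distal pairs are shown first, since the results turn on these sites. Each is the plus strand of GRCh38, 5′ to 3′, within 100 bp of the summit, and the ISL1 window ends at the base before the first TSS. Capitals mark, on either strand, the GATA word GATAA, the E-box word CANNTG, the homeodomain words TAATTA and also CTAATNG, and the AP-1 word TGANTCA. The E-box word includes CATCTG, and overlapping matches share letters.
ISL1 promoter, chr5:51383285-51383447: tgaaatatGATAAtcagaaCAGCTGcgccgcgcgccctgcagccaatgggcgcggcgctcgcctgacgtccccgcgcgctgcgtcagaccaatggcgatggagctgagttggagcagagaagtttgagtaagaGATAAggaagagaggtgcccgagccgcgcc
LMO4 promoter, chr1:87328357-87328557: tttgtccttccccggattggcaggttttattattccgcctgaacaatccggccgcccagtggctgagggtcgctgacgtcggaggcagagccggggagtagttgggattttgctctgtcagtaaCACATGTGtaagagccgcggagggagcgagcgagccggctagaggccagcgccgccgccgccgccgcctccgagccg
LDB1 upstream promoter peak, chr10:102120428-102120628: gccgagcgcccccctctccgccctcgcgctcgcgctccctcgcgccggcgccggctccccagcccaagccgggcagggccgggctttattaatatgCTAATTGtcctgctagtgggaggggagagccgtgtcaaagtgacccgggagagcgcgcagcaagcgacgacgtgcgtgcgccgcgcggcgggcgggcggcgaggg
ISL1 distal site, chr5:51399222-51399422: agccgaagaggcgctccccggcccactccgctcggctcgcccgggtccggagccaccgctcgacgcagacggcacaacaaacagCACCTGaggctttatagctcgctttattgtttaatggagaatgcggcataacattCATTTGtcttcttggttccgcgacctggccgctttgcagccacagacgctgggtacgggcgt
LMO1 distal site beyond the 3′ end of the gene, chr11:8206368-8206568: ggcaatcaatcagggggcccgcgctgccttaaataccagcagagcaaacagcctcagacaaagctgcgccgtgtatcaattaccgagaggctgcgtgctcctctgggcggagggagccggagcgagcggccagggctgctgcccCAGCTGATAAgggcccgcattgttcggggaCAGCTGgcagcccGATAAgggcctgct
LMO1 distal site upstream of the gene, chr11:8283735-8283935: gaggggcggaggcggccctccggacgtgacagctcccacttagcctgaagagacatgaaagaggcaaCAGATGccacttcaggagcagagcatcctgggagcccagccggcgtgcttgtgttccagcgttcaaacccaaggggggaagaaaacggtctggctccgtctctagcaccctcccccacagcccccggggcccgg
LMO4 distal site, chr1:87410723-87410923: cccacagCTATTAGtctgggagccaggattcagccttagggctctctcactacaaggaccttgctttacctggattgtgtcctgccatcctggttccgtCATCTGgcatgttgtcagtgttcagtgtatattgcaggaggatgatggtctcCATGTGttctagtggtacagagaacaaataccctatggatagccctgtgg

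Both ISL1 and LMO4 had an open promoter in each list, and their promoter peaks had the highest fold enrichments of the 6 genes in both. At LMO4 the promoter peak reached 12.5-fold in control and 9.93-fold in sgSNHG1. That of ISL1 reached 9.20 and 7.45. LMO3 followed with 5.36 and 5.92, LDB1 with 4.83 and 4.53, and LMO1 with 3.98 and 4.27. ISL2 had no promoter peak in control and 1 peak of 3.38 in sgSNHG1. By fold enrichment the order of the genes was the same in both lists, but the pileups of these peaks were ordered otherwise. In control LDB1 had 42 fragments, below ISL1 (61) and above LMO3 (20). In sgSNHG1 LDB1 had 36, above both ISL1 (33) and LMO3 (20). In control, the step in fold enrichment from ISL1 down to LMO3 (0.78 on the log2 scale, SE 0.37) exceeded 2 counting SE. The other neighbours in that order did not differ by as much. In sgSNHG1 no neighbours differed by 2 counting SE.

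**Figure D1:**
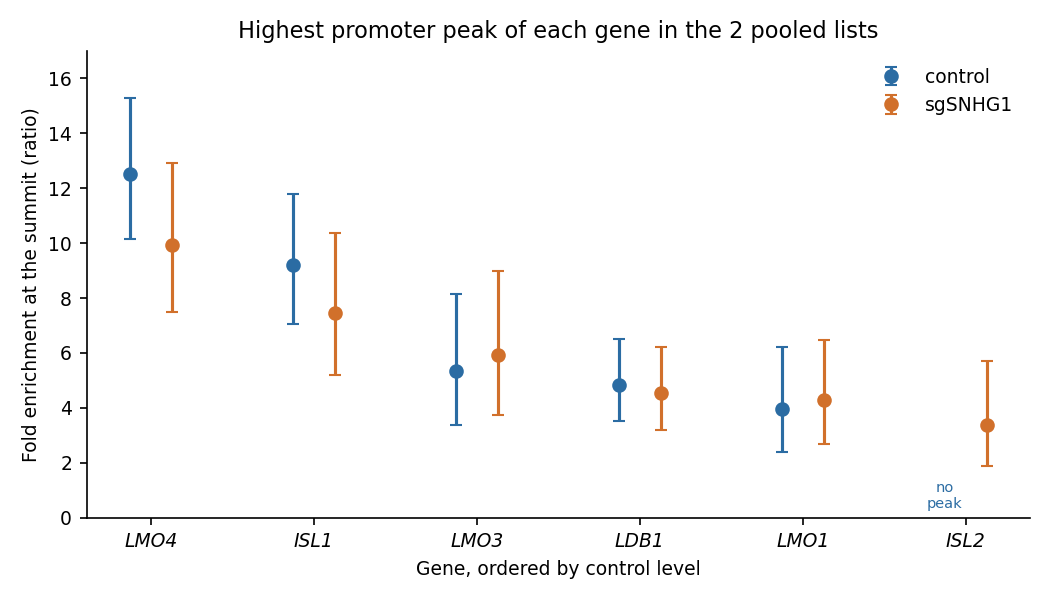
Fold enrichment (y axis, ratio to local background) of the highest promoter peak of each gene (x axis) in the control and sgSNHG1 lists, with 95% Poisson intervals of the pileup as error bars. LMO4 (12.5 and 9.93) and ISL1 (9.20 and 7.45) have the highest points in both lists, the intervals of the lists overlap at each gene with a peak in both, and ISL2 has a peak in sgSNHG1 alone.

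ISL1 (ENSG00000016082.15) lies on the plus strand of chromosome 5 at 51383448 to 51394730. The control promoter peak spanned 51382914 to 51383650 and the sgSNHG1 peak 51383220 to 51383560, with summits 63 bp and 30 bp upstream of the first TSS. The peak also covers the start of ISL1-DT, a long non-coding RNA gene, whose exon reaches into the left end of the ISL1 sequence above. The pileup was 61 fragments in control and 33 in sgSNHG1. Fold enrichment had a log2 ratio of -0.30 (SE 0.31), and the 95% counting interval ran from -0.92 to 0.31. A difference was thus not detectable at this depth in fold enrichment. The scaled pileup had a log2 ratio of -0.53. Within 5 Mb of the gene, 62 pairs had a median log2 ratio of -0.09 in fold enrichment and -0.16 in scaled pileup. Among protein-coding genes with a promoter peak in both lists, 21.0% had a lower log2 ratio of fold enrichment than ISL1. The sequence printed above holds GATAA near each end and a CANNTG beside the left copy.

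Inside ISL1 a further promoter-class peak was found in control alone, at 51387669 to 51387837 in an intron. Its fold enrichment was 3.16, the lowest of the 12 control peaks near the genes that were in 1 list only. Its pileup was 20 fragments over a local background of 5.65. Over all control peaks within 3 kb of a TSS, 24.2% had no overlap in sgSNHG1. A weak pair in an ISL1 exon lay 3584 bp (control) and 3724 bp (sgSNHG1) from the nearest TSS and so counted as distal, with fold enrichments of 4.24 and 3.97.

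Downstream of ISL1 lay its highest distal pair, at 51399161 to 51399454 in control, 15874 bp from the first TSS and between genes. It reached 7.09-fold in control and 5.57-fold in sgSNHG1, from pileups of 24 and 17 fragments. The log2 ratio was -0.35 with an SE of 0.46, and it was also the largest ratio of the distal ISL1 pairs. A second downstream site, at 51411991 to 51412369, lies within 3 kb of the pseudogene HMGB1P47. Its values were 8.19 and 6.65 (log2 ratio -0.30, SE 0.42). The pair farthest away, 81911 bp from the first TSS, had values of 4.99 and 4.78. All 5 ISL1 pairs had a lower fold enrichment in sgSNHG1, with log2 ratios from -0.35 to -0.06, and no ratio exceeded its SE. Of all pairs 55.6% were lower. With the scaled pileup 3 of the 5 were lower and 2 higher. The highest ISL1 peak in control alone, of 4.48, lay in an exon of ISL1-DT at 51373962 to 51374131, and the only peak in sgSNHG1 alone, of 4.32, lay just beyond the 3′ end of ISL1 at 51395350 to 51395520. Without overlap in the other list were 41% of all distal control peaks and 30.2% of all distal sgSNHG1 peaks.

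The promoters most like that of ISL1 in the log2 fold enrichments of both lists were those of CNOT4 (9.21 and 7.44), PDZD2 (9.16 and 7.46) and DYRK4 (9.17 and 7.40). The measure is the Euclidean distance over the 2 lists, and was 0.0014 to 0.0097 for these genes. The counting SE of the ISL1 log2 values was larger, 0.18 in control and 0.25 in sgSNHG1, so that the choice of these genes is not firm. Of the 12714 protein-coding genes with a value in both lists, 342 lay within a distance of 0.1, so that ISL1 was not alone in its pair of values.

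ISL2 (ENSG00000159556.10), on the plus strand of chromosome 15 at 76336773 to 76342475, had no peak at its own TSS in either list. Its sgSNHG1 peak at 76340386 to 76340492 lies in an ISL2 coding exon that overlaps an exon of the long non-coding RNA gene ENSG00000259514, 2948 bp from the nearest ISL2 TSS, and thus just inside the promoter window. It had a fold enrichment of 3.38 from 12 fragments, the lowest promoter value of the 6 genes in that list. Of all sgSNHG1 peaks within 3 kb of a TSS 12.5% had no overlap in control. A promoter peak in sgSNHG1 alone was found for 1.98% of protein-coding genes and one in control alone for 6.07%. The other site within 100 kb was the promoter of ETFA, an electron transfer flavoprotein gene, with fold enrichments of 10.1 and 12.7 (log2 ratio 0.34, SE 0.28) and pileups of 54 fragments in each list. No distal peak was called around ISL2.

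LMO4 (ENSG00000143013.13) lies on the plus strand of chromosome 1 at 87328880 to 87348923, and its promoter peak spanned 87328199 to 87328971 in control and 87328226 to 87328916 in sgSNHG1. The summits, 423 bp and 431 bp upstream of the first TSS, were 8 bp apart. The pileup was 95 fragments in control and 54 in sgSNHG1, the deepest of the promoter peaks of the 6 genes in both lists. Fold enrichment had a log2 ratio of -0.33 (SE 0.25) with a 95% counting interval of -0.82 to 0.15, and the scaled pileup one of -0.46. Within 5 Mb the median log2 ratio was -0.04 for either measure over 105 pairs. The LMO4 sequence above has overlapping E-boxes and no GATAA.

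Downstream of LMO4 lay 2 sites whose fold enrichments were close in the lists. They were just below that of the promoter in control (12.5) and above it in sgSNHG1 (9.93). This order holds for fold enrichment alone. The pileups of both sites were below those of the promoter (95 and 54 fragments) in either list. The distal site at 87410546 to 87411501, 81943 bp from the first TSS and between genes, had fold enrichments of 11.8 and 12.0 (log2 ratio 0.02, SE 0.29). Pileups there were 61 and 43 fragments, and the log2 ratio of the scaled pileup was -0.15. The site at 87369801 to 87370291, near a TSS of the long non-coding RNA gene LINC01364, had 12.1 in both lists, from 43 and 34 fragments. The sequence of the distal site above holds CANNTG and CTAATNG, and it is poorer in G and C (49.8%) than that of the LMO4 promoter (64.2%).

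Near the far edge of the LMO4 window a weak pair at 87423973 to 87424126 was higher in sgSNHG1, with fold enrichments of 3.59 and 5.41. Its pileups were 11 and 14 fragments and its log2 ratio 0.59 with an SE of 0.58, so that the counting error is as large as the ratio. It was the only distal pair of the 6 genes past 1.5-fold. Over all distal pairs 5.08% were at least 1.5-fold higher and 6.32% at least 1.5-fold lower in sgSNHG1. The highest LMO4 peak in control alone, of 5.87 from 19 fragments, lay at 87426982 to 87427165, and the highest in sgSNHG1 alone, of 4.41 from 11 fragments, at 87393461 to 87393571. An intronic LMO4 pair 3384 bp from the nearest TSS had values of 4.97 and 4.01, and its sgSNHG1 peak was 146 bp wide against 574 bp in control.

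LMO1 (ENSG00000166407.14), at 8224309 to 8268716 of chromosome 11 (minus strand), had the most peaks of the 6 genes, 16 in control and 11 in sgSNHG1. The median protein-coding gene had 6 peaks within 100 kb in each list. Fewer control peaks than LMO1 were found for 94.0% of genes, and fewer sgSNHG1 peaks for 84.6%. These counts were not adjusted for the length of the gene. The window was 244408 bp for LMO1, 211283 bp for ISL1 and 262223 bp for LMO3. Its promoter peaks were low. At the first TSS of the gene, the control peak at 8267951 to 8268712 had a value of 3.98, and the overlapping sgSNHG1 peak at 8268058 to 8268192 had 3.69 (log2 ratio -0.11, SE 0.51). Their summits were 433 bp apart and their widths 762 bp and 135 bp. At an inner TSS, the peak at 8263874 to 8264019 had 3.88 in control and 4.27 in sgSNHG1 (log2 ratio 0.14, SE 0.46), from 20 fragments in each. The highest promoter peaks of the lists were thus different sites, and their log2 ratio of 0.10 (SE 0.48) does not compare 1 site. Another promoter peak, at 8262720 to 8262925, was found in control alone with a fold enrichment of 3.64.

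The leading distal sites of LMO1 had higher fold enrichments than its promoters. The median over its distal peaks was 5.16 in control and 5.69 in sgSNHG1, and the lowest distal peaks, of 3.60 and 3.54, lay below the highest promoter peaks. The highest distal site, at 8206171 to 8206794, lay between genes beyond the 3′ end of LMO1, 62248 bp from the first TSS. It had fold enrichments of 9.73 and 10.1 from 59 and 48 fragments (log2 ratio 0.06, SE 0.28). Its sequence above holds a CANNTG and a GATAA that overlap, a further copy of each, and CTG and GATA separated by 8 bases. The GATA of this last match lies in the overlapping copy. Its CTG is in small letters and belongs to no CANNTG. Upstream of the gene, the site at 8283522 to 8284228 had 7.87 and 5.69 from 40 and 20 fragments, a log2 ratio of -0.47 with an SE of 0.40. The largest log2 ratio of the distal LMO1 pairs was -0.53 (SE 0.50), at 8354675 to 8355066, with fold enrichments of 5.26 and 3.63. A further upstream site, at 8328915 to 8329189, went the other way, with 4.96 and 6.59 (log2 ratio 0.41, SE 0.41). Of the 8 distal LMO1 pairs 6 were higher and 2 lower in sgSNHG1, and the median log2 ratio was 0.13. Of all distal pairs 48.3% were higher. No ratio exceeded 2 SE, and the direction of each held with the scaled pileup.

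The introns of LMO1 held 4 of its 5 distal peaks in control alone. Of 6 distal control peaks in LMO1 introns 2 overlapped an sgSNHG1 peak, while all 3 distal sgSNHG1 peaks there overlapped a control peak. Over all distal peaks 41% in control and 30.2% in sgSNHG1 had no overlap, and for LMO1 as a whole these were 5 of 13 and 0 of 9. The share of LMO1 distal control peaks in control alone was thus close to that of the whole list. The highest peak in control alone, at 8243324 to 8243792, had a fold enrichment of 5.19 from 34 fragments over a local background of 5.75. It lay beside a peak that was shared, at 8242512 to 8243046, with values of 5.82 in control and 6.37 in sgSNHG1. Over the 5 distal LMO1 peaks in control alone, fold enrichment ranged from 4.46 to 5.19 and pileup from 16 to 35 fragments. The local background of LMO1 intronic peaks reached 7.06 fragments in control, against the smallest value of 2.20 in that list. No LMO1 peak was found in sgSNHG1 alone.

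**Figure D2:**
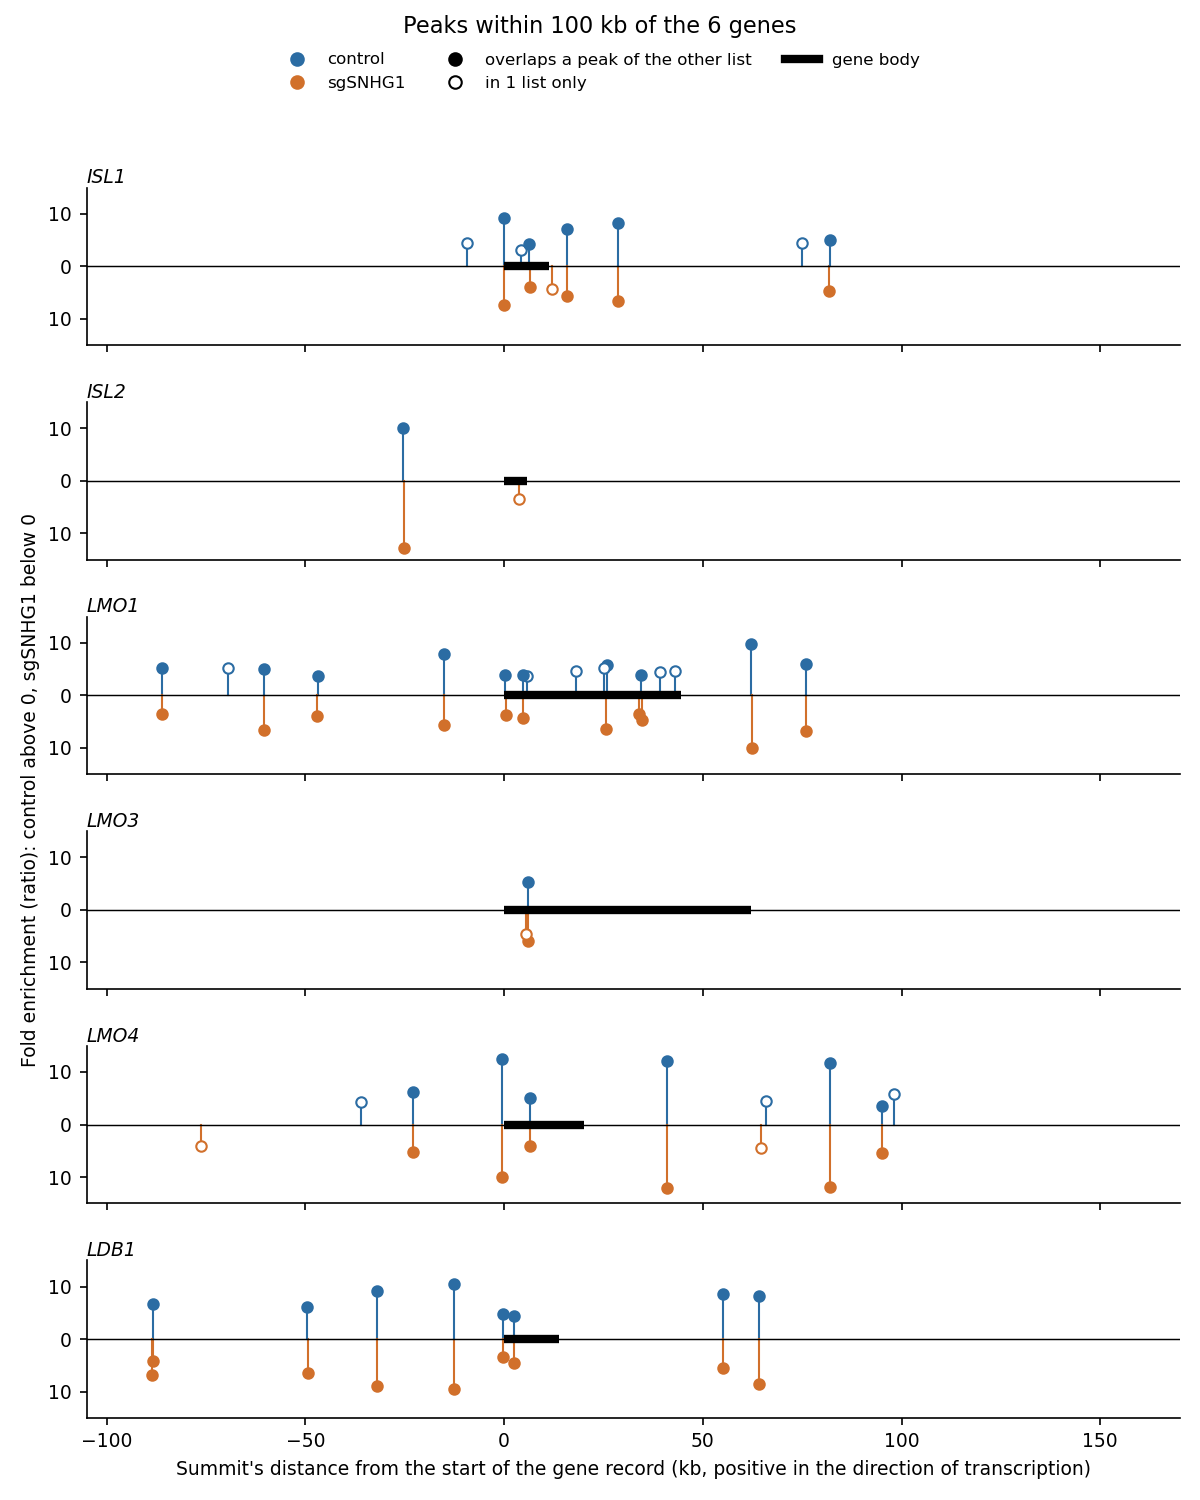
Fold enrichment (y axis, ratio, control upward and sgSNHG1 downward from 0) against the distance of the summit from the start of the gene record (x axis, kb) for the peaks within 100 kb of each gene, with filled points for peaks that overlap the other list. LMO1 has 16 control and 11 sgSNHG1 peaks spread over the gene and both flanks, while ISL2 and LMO3 have 1 in control and 2 in sgSNHG1.

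LMO3 (ENSG00000048540.16), at 16548372 to 16610594 of chromosome 12 (minus strand), had no peak at the start of its gene record. Its transcripts start at 31 distinct positions, and both lists had a peak near the inner starts. The control peak spanned 16604375 to 16604534 and the sgSNHG1 peak 16604379 to 16604519, with summits in introns of LMO3 and the overlapping MGST1. Each peak had 20 fragments, with fold enrichments of 5.36 and 5.92 (log2 ratio 0.14, SE 0.46). A neighbouring promoter peak, at 16604895 to 16605176 in an exon, was found in sgSNHG1 alone with a fold enrichment of 4.55 from 15 fragments. No distal peak was called within 100 kb of LMO3, and the nearest control peak outside lay 270278 bp away.

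LDB1 (ENSG00000198728.11), at 102106489 to 102120368 of chromosome 10 (minus strand), lies among genes with open promoters. It had 2 promoter peaks in each list. The upstream peak, at 102120468 to 102120694, had a summit 160 bp before the first TSS and fold enrichments of 4.83 and 3.49 from 42 and 24 fragments. Its log2 ratio was -0.47 with an SE of 0.37, the lowest of the 7 promoter pairs. The intronic peak, at 102117441 to 102118076, had 4.43 and 4.53 from 47 and 36 fragments (log2 ratio 0.03, SE 0.32). The highest LDB1 peak was therefore the upstream one in control and the intronic one in sgSNHG1, and their log2 ratio of -0.09 (SE 0.33) joins different sites. The local background of these peaks was 6.16 to 9.83 fragments. The upstream sequence above has 73.6% G and C and holds a CTAATNG.

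The promoters of the LDB1 neighbours had higher fold enrichments than those of LDB1, over lower local backgrounds (4.09 to 6.28 fragments in control and 2.84 to 4.41 in sgSNHG1). Their pileups were not all higher. They were 76 and 50 fragments at PPRC1, 61 and 45 at NOLC1, 41 and 32 at ARMH3, and 45 and 24 at HPS6. Fold enrichments were 10.6 and 9.43 at the promoter of PPRC1, 9.20 and 8.94 at that of NOLC1, and 8.25 and 8.59 at that of ARMH3. At the promoter of HPS6, which encodes a subunit of a complex for lysosome-related organelles, they were 8.51 and 5.42, a log2 ratio of -0.65 with an SE of 0.36. It was the only pair of the 6 loci at least 1.5-fold lower in sgSNHG1. Of all pairs within 3 kb of a TSS 5.17% were at least 1.5-fold lower and 1.9% at least 1.5-fold higher. The distal LDB1 pairs had 6.13 and 6.48 at 102169550 to 102169911 (log2 ratio 0.08, SE 0.44), the larger of the distal ratios, and 6.73 and 6.76 at 102208597 to 102208981 (log2 ratio 0.0047, SE 0.46), where the sgSNHG1 list had 2 peaks within the reach of 1 control peak. All 8 control and 9 sgSNHG1 peaks around LDB1 overlapped the other list. Over all peaks 66.7% in control and 78.2% in sgSNHG1 did so, and over those within 3 kb of a TSS 75.8% and 87.5%. In each list 2 of the LDB1 peaks were its promoter peaks and 4 lay at promoters of neighbours.

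Promoter and distal sites were then compared over the 6 genes. Of the 9 promoter peaks of each list 7, or 77.8% (95% Wilson interval 45.3 to 93.7), overlapped a peak of the other. Over all peaks within 3 kb of a TSS the shares were 75.8% in control and 87.5% in sgSNHG1. Of the distal peaks, 17 of 27 in control (63.0%, interval 44.2 to 78.5) and 19 of 22 in sgSNHG1 (86.4%, 66.7 to 95.3) overlapped the other list. Over all distal peaks the shares were 59.0% and 69.8%. The intervals around the shares of the 6 genes cover counting error only, and each includes the share of the whole list. The 7 peaks of each list at neighbouring promoters all overlapped. A peak in 1 list passed the threshold there, and the signal of the other list at that place is not known.

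**Figure D3:**
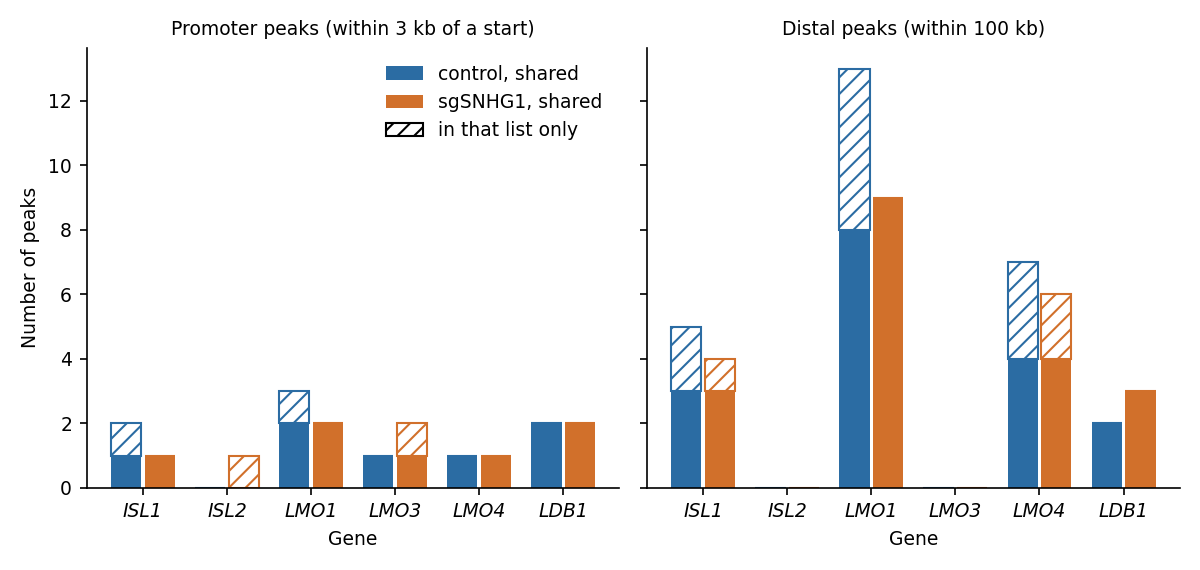
Number of promoter peaks (left) and distal peaks (right) of each gene in each list (y axis), with hatching for peaks without overlap in the other list. LMO1 has 5 of its 13 distal control peaks in control alone and 0 of its 9 distal sgSNHG1 peaks in sgSNHG1 alone.

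Distal peaks in 1 list had a lower median fold enrichment than those in both, though the ranges overlapped. The highest distal peak in control alone had 5.87. The median fold enrichment of distal control peaks was 4.59 for those in control alone and 5.82 for shared ones. The same values over all distal control peaks were 4.37 and 6.07. In sgSNHG1 the 3 distal peaks without overlap had fold enrichments from 4.05 to 4.41 and pileups from 10 to 15 fragments.

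Over the 7 promoter pairs the median log2 ratio of fold enrichment was -0.11, with 4 lower and 3 higher in sgSNHG1 and a range of -0.47 to 0.14. Over all pairs within 3 kb of a TSS it was -0.07. Over the 17 distal pairs it was 0.02, with 7 lower and 10 higher and a range of -0.53 to 0.59, against -0.01 over all distal pairs. With the scaled pileup the medians were -0.03 for promoter and 0.06 for distal pairs. None of the 31 pairs differed by more than 2 counting SE, and 7 differed by more than 1. Promoter pairs past 1.5-fold numbered 0, beside the 5.17% and 1.9% of pairs near a TSS.

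**Figure D4:**
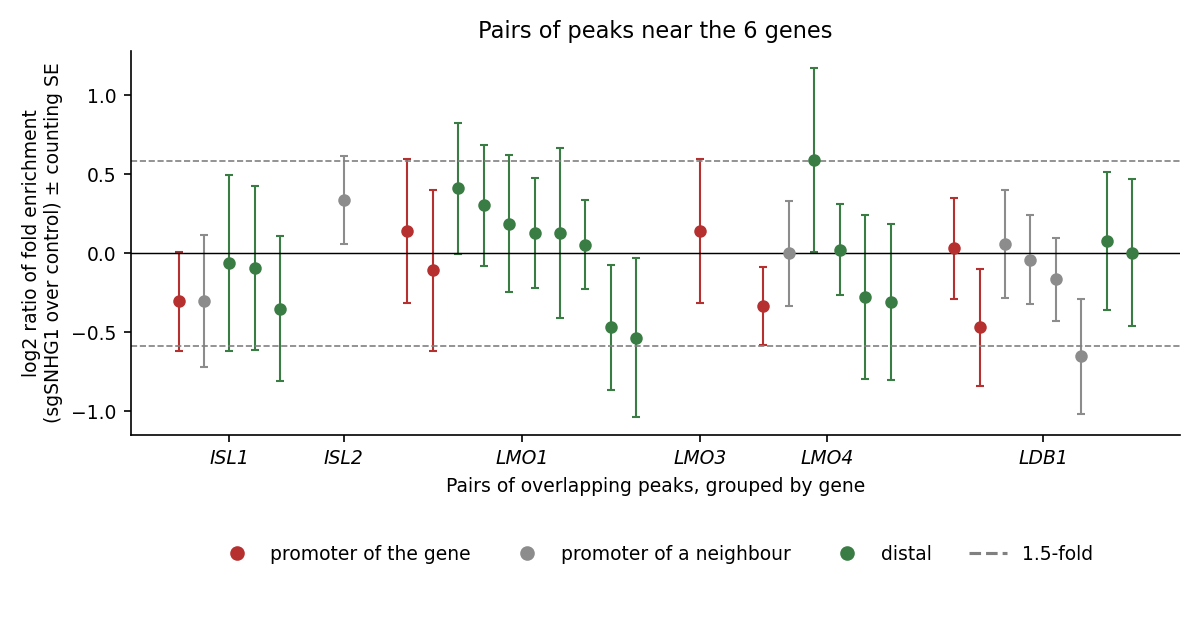
Log2 ratio of fold enrichment (y axis, sgSNHG1 over control) with its counting SE as error bars for the 31 pairs of overlapping peaks, grouped by gene (x axis) and coloured by class, with 1.5-fold in dashed lines. The ratios lie on both sides of 0 except at ISL1, where all 5 are below 0, and at ISL2 and LMO3, which have 1 pair each.

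Width moved more than height. Of the 31 pairs 26 were narrower in sgSNHG1, with a median log2 ratio of width of -0.45 beside -0.42 over all pairs. The ISL1 promoter peak was 737 bp wide in control and 341 bp in sgSNHG1. The distal ISL1 site went the other way, from 294 bp to 528 bp. The smallest peak width, which MACS2 sets from the fragment length, was 119 bp in the control list and 92 bp in the sgSNHG1 list. The part of this difference in the widths was not tested.

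The sequences near the summits were described by short consensus words within 100 bp of a summit on both strands. Among promoter peaks of the 6 genes in control, 2 of 9 held GATAA (those of ISL1 and LMO3), beside 12.5% of all control peaks within 3 kb of a TSS. CANNTG was in 6 of 9, beside 55.1%. The homeodomain word TAATTA was in the LMO3 peak (1 of 9, beside 1.65%), and the homeodomain word CTAATNG in the upstream LDB1 peak (1 of 9, beside 2.69%). CATCTG was in 0 of 9, beside 14.0%. The AP-1 word TGANTCA was in 0 of 9, beside 4.55%, and so was CTG followed after 8 bases by GATA, beside 1.00%.

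Among the 27 distal control peaks, 5 held GATAA (18.5%, beside 31.9% of all distal control peaks), 20 CANNTG (74.1%, beside 76.9%) and 9 CATCTG (33.3%, beside 30.4%). CTG and GATA separated by 8 bases, the arrangement of an E-box part and a GATA site, was in 3 of 27 (11.1%, beside 2.64%). Of these, 2 were at LMO1 and 1 at LMO4. The search did not require that the CTG lie in a CANNTG. In the 22 distal sgSNHG1 peaks this arrangement was in 1 (4.55%, beside 2.74%), the LMO1 site at 8206301 to 8206767. The other LMO1 match was at a shared pair whose summits lay 62 bp apart, so that the windows differed. The LMO4 match was at a peak in control alone. TAATTA was in 1 of 27, CTAATNG in 2 of 27 and TGANTCA in 3 of 27, beside 6.39%, 7.09% and 9.29%. The median G and C content of the windows was 56.7% for distal control peaks of the 6 genes and 49.3% for all distal control peaks. A match is a run of letters, and binding was not measured.

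Other genes of the LIM complexes were described at their promoters. The 20 genes listed were LMO2 and LDB2, the LDB-binding SSBP2, SSBP3 and SSBP4, the ubiquitin ligase gene RLIM, the LIM-homeodomain genes LHX1, LHX2, LHX3, LHX4, LHX5, LHX6, LHX8, LHX9, LMX1A and LMX1B, and the helix-loop-helix genes TAL1, LYL1, TCF3 and TCF12. Promoter peaks were found in both lists for 12 and in neither for 6 (LHX1, LHX3, LHX5, LMX1A, LMX1B and TAL1). They were in control alone for LHX4 (4.71 from 28 fragments) and LYL1 (4.59 from 20 fragments), and in sgSNHG1 alone for 0 genes, beside 6.07% and 1.98% of protein-coding genes. Of the 12 genes with a value in both lists, 11 were lower in sgSNHG1 by fold enrichment and SSBP3 was higher, while 60.4% of the 12714 protein-coding genes were lower. With the scaled pileup 8 were lower and 4 higher (SSBP3, TCF3, TCF12 and LHX6), beside 54.4% lower over protein-coding genes. The median log2 ratio of fold enrichment was -0.15, beside -0.07 over protein-coding genes. LHX8 was the only gene past 1.5-fold, from 6.87 to 4.05 (log2 ratio -0.76, SE 0.54, 24 and 10 fragments). Over protein-coding genes 4.26% were at least 1.5-fold lower and 1.13% at least 1.5-fold higher. No pathway gene differed by more than 2 counting SE.

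Values near the limits of the windows were as follows. The distal pair in the ISL1 exon lay 3422 bp (control) from the nearest TSS edge to edge, with 4.24, while the intronic promoter peak of 3.16 lay 1465 bp away. The farthest ISL1 peak inside 100 kb in control, of 4.99, lay 70489 bp from the gene, and the nearest outside, of 8.43, lay 197158 bp away. For LMO4 these were 5.87 at 78059 bp and 9.26 at 100418 bp, so that a high peak lies just beyond the limit.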

How the data were processed

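ATAC-seq libraries of 4 samples, 2 per group, were grouped by the labels. The authors trimmed adapters with cutadapt, aligned reads to GRCh38 with BWA, removed duplicate, mitochondrial and blacklisted reads, combined the replicates of a group and called peaks with MACS2. Tool versions are not given in the sources used here. Each deposited peak has a fold enrichment, a ratio of pileup to local background with a pseudocount of 1, and a -log10 p and -log10 q as the authors' peak caller gave them. The smallest deposited -log10 q was 2.00 in control and 2.01 in sgSNHG1. Duplicate removal limits the height of deep peaks, and a peak of 1 library can pass unseen in combined replicates.

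From the deposited values the whole-number pileup was solved to within 0.001 of the -log10 p, for 47609 of 47610 control and 42682 of 42682 sgSNHG1 peaks. Peaks overlapping by at least 1 bp were called shared, and mutual best overlaps formed 31663 pairs. Called means at least 1.5-fold in fold enrichment, or a peak in 1 list. Genes came from GENCODE version 44 on GRCh38, and bases were read from that genome. The value of a gene is its highest promoter peak. Steps were tested on simulated data. Python 3.11.15, pandas 2.3.3, numpy 2.4.6 and scipy 1.17.1 were used. Intervals cover counting error only, since fragments of 1 pooled list say nothing of the spread between replicates.

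The 6 genes, the pathway and marker lists and the consensus words were chosen with earlier results of these data known, and 1 item of the marker lists is not reported here. Named by rule were the promoter peaks, per gene the distal pair with the highest control value, the distal pair with the largest ratio and the highest peak in 1 list, for ISL1 the 3 genes nearest in both values, and pathway genes past 1.5-fold or in 1 list. The PPRC1, NOLC1, ARMH3, HPS6, ETFA, HMGB1P47 and LINC01364 sites and some further pairs were named after their values were seen. Alternatives were other -log10 q thresholds, windows, overlaps, the scaled pileup, sums and the TSS of the gene record.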

Additional observations from a re-analysis of the deposited data

How the results depend on the processing

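Of 64 values recomputed under an alternative 58 stayed within their counting interval or within 1.5 times the count, and 6 moved. The counting intervals are wide, so that staying within them does not show that a value is stable. The interval of LMO3, for example, ran from -0.75 to 1.04, and a change from 0.14 to 0.97 counted as staying. With a -log10 q of at least 5, the share of control promoter peaks that overlapped the other list was 100%. With a -log10 q of at least 10, 21 control and 15 sgSNHG1 peaks were left near the 6 genes, and the share of sgSNHG1 promoter peaks was 100%. When each peak of a pair had to be covered by 50%, 37.0% of control and 45.5% of sgSNHG1 distal peaks overlapped. Fewer peaks, or a stricter overlap, enter these by construction. The scaled pileup turned the sign at LDB1 (-0.09 to 0.14) and gave 0.59 at LMO1. At LMO1 the TSS of the gene record gave -0.11 in place of 0.10. Sums over the promoter window gave -0.73 for ISL1, -0.53 for LMO1 and 0.97 for LMO3. A peak that was not called adds nothing to the sum of its list. The sums thus hold peaks found in 1 list only, of 3.16 at ISL1 and 3.64 at LMO1 in control. At LMO3 such a peak had 4.55 in sgSNHG1. The overlap of 50% turned the sign of the median log2 ratio over promoter pairs to 0.03 and over distal pairs to -0.02. The same site for both lists, an alternative chosen after seeing the data, gave -0.11 at LMO1 and -0.47 at LDB1. The promoter window of 1 kb gave -0.47 at LDB1 and left LMO1 at 0.10. LMO3 has no peak at the TSS of its gene record, so that this alternative gave no value there. No paired analysis was possible because the replicates were combined before peak calling, and leaving out each replicate could not be run for the same reason. Beyond what each alternative computes, the cause of these shifts was not tested. The counting error of a ratio was 0.25 to 0.58 on the log2 scale over the 31 pairs. None of these ratios could be told from 0 at 2 counting SE. The same held for the pairs past 1.5-fold, at HPS6 (-0.65, SE 0.36) and downstream of LMO4 (0.59, SE 0.58).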
